A study of Mus musculus with 8 samples.

Results

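The genes described here are 44 genes of mitosis and DNA replication, chosen by name from general knowledge of the cell cycle and grouped by role. A gene entered through the probe sets that the array annotation assigns to its symbol alone, and of several the brightest on average stood for it. In this way 43 of the 44 genes were measured, among 12393 genes in all. Ccnb1 (cyclin B1) had no such probe set and is not analysed here. The cells were the mouse embryonic stem cell line J1, kept undifferentiated with leukemia inhibitory factor in serum medium, and their RNA was read on Affymetrix arrays. Each of 4 groups had 2 arrays. Undifferentiated cells carried either a control hairpin, called shControl, or one of 2 hairpins targeting Fbxl19, called shRNA1 and shRNA2, and the remaining group was taken at day 4 of differentiation. Fbxl19 encodes an F-box protein that binds unmethylated CpG DNA, and the series asked how gene expression changes when it is reduced. The labels give neither the route of differentiation, nor the time between knockdown and harvest, nor a hairpin for the day 4 cells. They also leave unsaid whether replicates came from separate cultures, and the p-values therefore speak only of array-to-array spread, which may be technical. No probe set was annotated to Fbxl19, and the knockdown was not checked here.

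A dividing cell copies its DNA once in S phase and separates the copies in mitosis. Before S phase, Cdc6 and Cdt1 load the ring-shaped MCM helicase onto replication origins, and geminin (Gmnn) binds Cdt1 afterwards so that no origin is loaded again. In mitosis, Cdk1 with its cyclins and the Plk1 and Aurora kinases build the spindle, and the checkpoint proteins Bub1, Bub1b, Bub3 and Mad2l1 hold back Cdc20 until every chromosome is attached. Transcription of the replication genes is classically driven by E2F factors, and that of the mitotic genes by B-Myb (Mybl2) and Foxm1 acting with the MuvB complex. Mouse embryonic stem cells divide fast with a short G1 phase and express these genes at high levels.

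Many promoters of these genes carry the short sequences known from that division of labour. The 7 shown belong to genes whose results are given later, and of the motifs Nek2 and Cenpe hold only CCAAT. Sequences are RefSeq's, build GRCm38.p6, and each is the 200 bases before the annotated transcription start, written 5′ to 3′. Capitals mark matches on either strand to CCAAT (bound by NF-Y), TTTGAA (the CHR element bound by MuvB) and the E2F-type motifs TTTCCCGC, TTTGGCGC, TTTCGCGC and TTTGCCGC. Adjoining capitals are overlapping or touching matches.
Mcm5, chr8:75109309-75109508, plus strand: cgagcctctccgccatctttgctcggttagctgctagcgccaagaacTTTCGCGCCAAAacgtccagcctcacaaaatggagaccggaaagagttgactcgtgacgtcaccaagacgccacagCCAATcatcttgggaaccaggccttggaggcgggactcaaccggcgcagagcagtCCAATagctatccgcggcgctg
Mcm6, chr1:128359706-128359905, minus strand: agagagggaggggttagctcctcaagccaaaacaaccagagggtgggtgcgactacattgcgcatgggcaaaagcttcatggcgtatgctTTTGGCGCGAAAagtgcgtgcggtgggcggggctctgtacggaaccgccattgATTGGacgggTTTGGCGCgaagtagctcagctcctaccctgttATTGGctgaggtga
Ccnb2, chr9:70421555-70421754, minus strand: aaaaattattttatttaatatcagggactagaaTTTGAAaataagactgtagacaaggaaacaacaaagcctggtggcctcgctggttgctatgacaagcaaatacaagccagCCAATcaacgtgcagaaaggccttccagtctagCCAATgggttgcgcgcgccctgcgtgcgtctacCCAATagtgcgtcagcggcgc
Nek2, chr1:191821273-191821472, plus strand: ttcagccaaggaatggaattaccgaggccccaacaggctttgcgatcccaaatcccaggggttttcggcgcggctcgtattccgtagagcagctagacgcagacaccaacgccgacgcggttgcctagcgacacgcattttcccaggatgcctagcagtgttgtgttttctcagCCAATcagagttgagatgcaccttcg
Cenpe, chr3:135212363-135212562, plus strand: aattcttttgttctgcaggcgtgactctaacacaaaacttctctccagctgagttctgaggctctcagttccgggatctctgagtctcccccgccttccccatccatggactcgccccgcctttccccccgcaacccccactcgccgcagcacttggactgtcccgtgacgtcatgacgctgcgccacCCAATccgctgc
Mki67, chr7:135716380-135716579, minus strand: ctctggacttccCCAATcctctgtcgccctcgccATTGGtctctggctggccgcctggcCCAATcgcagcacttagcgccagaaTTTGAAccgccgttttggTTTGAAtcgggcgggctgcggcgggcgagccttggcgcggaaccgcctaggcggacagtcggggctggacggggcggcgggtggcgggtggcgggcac
Cdc20, chr4:118437344-118437543, minus strand: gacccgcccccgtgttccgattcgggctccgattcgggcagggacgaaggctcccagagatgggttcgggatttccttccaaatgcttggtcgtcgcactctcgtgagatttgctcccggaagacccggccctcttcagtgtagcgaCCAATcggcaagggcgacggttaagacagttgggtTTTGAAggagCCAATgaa
The helicase genes Mcm5 and Mcm6 each had an overlapping pair of E2F-type matches on opposite strands, beginning at -153 and -149 from the start in Mcm5 and at -110 and -106 in Mcm6, which had another at -47. The mitotic genes in this set had CCAAT and no E2F-type match, and Ccnb2, Mki67 and Cdc20 also had TTTGAA.

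Windows of 300 bases (250 before and 50 after the start) were found for 36 of the 44 genes. An E2F-type match was present for 7 of the 14 replication genes with a window and for 1 of the 20 mitosis genes, Cdk1. TTTGAA was present for 14 of those 20 mitosis genes and 2 of the 14 replication genes, and CCAAT for 18 and 9. Among all 32851 promoter windows in the table, 2.26% held an E2F-type match, 17.9% TTTGAA and 37.4% CCAAT. Birc5, Mad2l1, Tyms, E2f1 and Mybl2 had none of the 3 motifs in this window. A match is a string of letters and not a measured binding site.

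**Figure D1:**
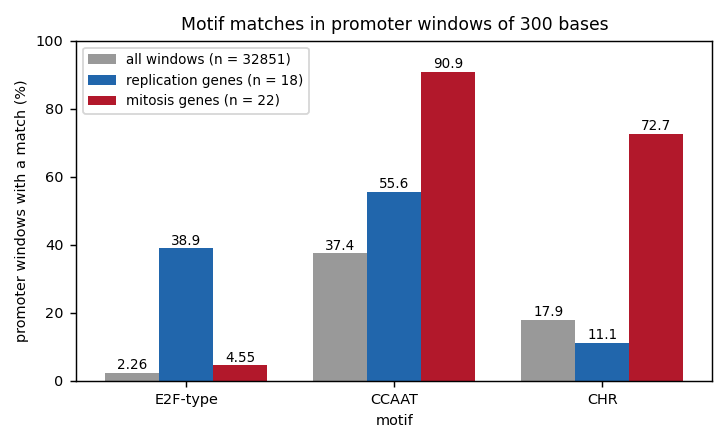
Share of 300-base promoter windows (y axis, percent) with a match to each motif (x axis), for all 32851 windows, the 18 windows of the replication genes and the 22 windows of the mitosis genes, some genes having several. E2F-type matches stood at 38.9% in replication genes against 4.55% in mitosis genes, and TTTGAA (CHR) at 72.7% in mitosis genes against 11.1% in replication genes.

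The arrays themselves were alike in scale. Array medians ran from 5.70 to 5.81 and lower quartiles from 3.79 to 3.90, with shControl replicate 2 highest in median and lowest in lower quartile. Actin control signal at the 3′ end exceeded that at the 5′ end, a sign of RNA quality, by 0.54 and 0.60 (log2) for shControl and by 0.65 to 0.76 for the other 6 arrays, so it separated shControl from every other group. Its part in the results was not tested. Of 12 embryonic stem cell markers, 8 were lower on day 4 than in shControl and 0 higher. Their mean level was 11.44 and 11.43 in shControl, 11.38 to 11.48 with the hairpins, 10.01 on day 4 replicate 1 and 9.19 on day 4 replicate 2. Markers of other cells had array means of 3.93 to 4.11 over 9 fibroblast genes, 3.90 to 4.28 over 6 endoderm genes, 4.74 to 5.03 over 5 mesoderm genes, 5.49 to 5.80 over 5 neural genes and 3.69 to 3.92 over 6 blood genes. Of these, 1 rose from shControl to day 4, the blood gene Cd34 (0.95 ± 0.24). From the same reference 3 fell, the blood gene Tal1 (-0.92 ± 0.23), the mesoderm gene Kdr (-0.89 ± 0.25) and the neural gene Tubb3 (-1.13 ± 0.18). Among all genes 7.67% rose and 8.73% fell. The hairpin arrays too lay below both controls for Tal1 (4.32 to 4.88) and Tubb3 (6.33 to 7.15). Against all undifferentiated arrays, 1 gene rose in each of the fibroblast, endoderm, neural and blood lists. Of the fibroblast, mesoderm and neural lists 1 each fell, where 12.1% of all genes fell. The part of these markers in the results was not tested.

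On day 4, of the 43 measured genes, 39 had a fitted change below 0, where 50% of all genes did, and the median change was -0.36 on the log2 scale against 0.00 over all genes. The 6 genes that fell at an adjusted p under 0.05 came from 6 of the 8 role groups, namely Mybl2, Cenpe, Bub1b, Nek2, Cdt1 and Ccnb2, and 0 rose. Among all genes 8.73% fell and 7.67% rose. The 6 in 43 are 14%, a share not far from that background for so few genes. The genes as a set were not tested. The 2 day 4 arrays lay below both shControl arrays for 28 of the 43 genes, against 26.3% of all genes, and above both for 1, Bub1, against 24.1%. With the mean of the 3 undifferentiated groups as the reference, which brings in 6 arrays, 15 of the 43 genes fell and 0 rose, against 12.1% of all genes falling. In bulk RNA, fewer cells in S phase or mitosis and less of a transcript per cell cannot be told apart.

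**Figure D2:**
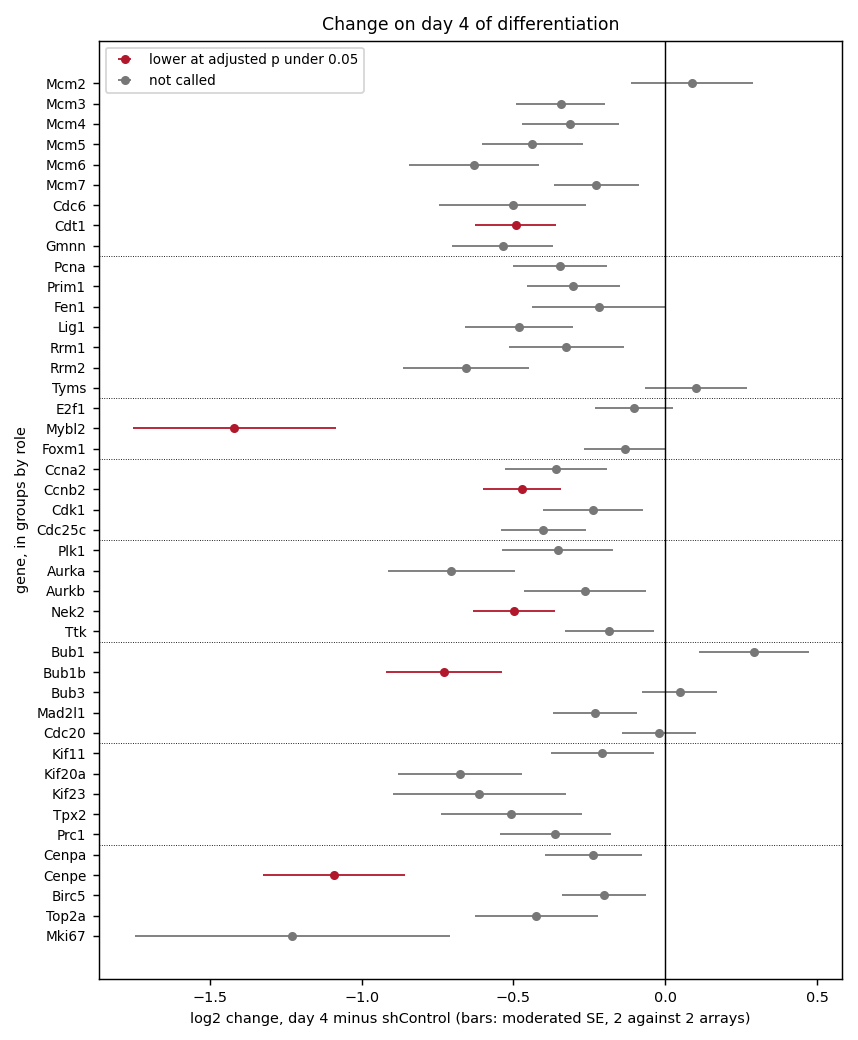
Fitted log2 change, day 4 minus shControl (x axis), of the 43 measured genes (y axis, grouped by role), with bars for the moderated SE of 2 against 2 arrays. Red points are the 6 genes called lower, and 39 of the 43 points lie left of 0.

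The transcription factor gene Mybl2 had the largest fitted change from shControl, although against all undifferentiated arrays Mki67 (-1.51 ± 0.42) and Cenpe (-1.37 ± 0.19) had larger ones than Mybl2 (-1.29 ± 0.27). Its log2 values were 9.69 and 9.90 in shControl, 9.55 and 9.59 with shRNA1, 9.54 and 9.72 with shRNA2, and 9.02 and 7.74 on day 4. Both day 4 arrays lay below every undifferentiated array, and their gap was wider than the range of the 6 undifferentiated arrays. The fall was -1.42 ± 0.33 (SE, 2 against 2 arrays), or 2.68-fold, with a limma adjusted p of 0.0200. It was -2.06 without day 4 replicate 1 and -0.78 without day 4 replicate 2. A second probe set of Mybl2 gave -1.58 ± 0.23. The other 2 factors did not pass: E2f1, a leading activator of S-phase genes, had -0.10 ± 0.13 (adjusted p = 0.655), and Foxm1, an activator of mitotic genes, had -0.13 ± 0.13 (adjusted p = 0.561). Foxm1 values lay between 6.26 and 6.55 on all 8 arrays.

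Among the centromere and chromosome genes, the kinetochore motor gene Cenpe fell. It stood at 7.003 and 6.853 in shControl, 7.04 and 7.45 with shRNA1, 7.20 and 7.69 with shRNA2, and 5.58 and 6.09 on day 4. The day 4 arrays lay below all 6 others, and the change from shControl was -1.09 ± 0.23 (2.13-fold, adjusted p = 0.0129). Mki67, which encodes the proliferation antigen Ki-67, stood at 9.02 and 9.58 in shControl, 9.44 and 9.96 with shRNA1, 9.54 and 9.95 with shRNA2, and 7.10 and 9.04 on day 4. Only day 4 replicate 1 was clearly below the rest, replicate 2 lying within the shControl range, and the change of -1.23 ± 0.52 did not pass (adjusted p = 0.154). It was -0.26 without day 4 replicate 1 and -2.20 without day 4 replicate 2. Top2a, the topoisomerase that untangles sister chromatids, had -0.43 ± 0.20, and Birc5 (survivin) and Cenpa, the centromeric histone, had -0.20 ± 0.14 and -0.24 ± 0.16. None of these 3 passed.

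The spindle checkpoint group split. Bub1b, which encodes BubR1, stood at 10.22 and 10.43 in shControl, 10.21 to 10.45 with the hairpins, then 9.33 and 9.86 on day 4. All undifferentiated arrays were above both day 4 arrays, and the fall was -0.73 ± 0.19 (1.66-fold, adjusted p = 0.0307). Its relative Bub1 was the gene of the set with the largest upward value, 10.61 and 10.81 in shControl against 11.16 and 10.85 on day 4, a difference of 0.29 ± 0.18 that did not pass (adjusted p = 0.328). The Bub1 arrays of day 4 lay above both controls but overlapped the knockdown arrays, which ran from 10.66 to 11.03. Bub3 and Cdc20 had differences of 0.05 ± 0.12 and -0.02 ± 0.12, with intervals (95%) of -0.23 to 0.33 and -0.30 to 0.25. Cdc20, the activator of the anaphase promoting complex, lay between 11.97 and 12.12 on all 8 arrays. Mad2l1 had -0.23 ± 0.14 (adjusted p = 0.313).

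Of the cyclins and their partners, cyclin B2 was the one called. Ccnb2 stood at 10.73 and 10.91 in shControl, 10.82 to 10.98 with the hairpins, then 10.35 and 10.34 on day 4. The day 4 arrays were close together and below the other 6, and the fall was -0.47 ± 0.13 (1.39-fold, adjusted p = 0.0376). Cdc25c, the phosphatase that activates Cdk1, stood at 7.13 on both shControl arrays and 6.86 and 6.59 on day 4, a change of -0.40 ± 0.14 that did not pass (adjusted p = 0.0903). Cyclin A2 (Ccna2) had -0.36 ± 0.17 and Cdk1 -0.24 ± 0.16, and neither passed.

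Of the mitotic kinases, the centrosomal kinase gene Nek2 fell. It stood at 8.54 and 8.44 in shControl, 8.44 to 8.48 with the hairpins, then 8.11 and 7.88 on day 4, without overlap (-0.50 ± 0.13, 1.41-fold, adjusted p = 0.0357). Aurka, the spindle pole kinase, had a larger change of -0.70 ± 0.21 and missed the threshold (adjusted p = 0.0514), its day 4 arrays standing at 9.14 and 9.82 and its shControl arrays at 10.07 and 10.31. Plk1 had -0.36 ± 0.18, Aurkb -0.26 ± 0.20 and the checkpoint kinase gene Ttk -0.18 ± 0.15, with adjusted p of 0.236, 0.438 and 0.460. Among spindle motors and midzone genes 0 of 5 passed, although all 5 had changes below 0, from -0.21 ± 0.17 for the bipolar motor Kif11 to -0.68 ± 0.20 for the midzone motor Kif20a (adjusted p = 0.0533). Against all undifferentiated arrays, 3 of these 5 fell: Kif20a, the spindle assembly factor Tpx2 and the midzone bundler Prc1.

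The 16 replication genes had a median change of -0.35, beside -0.36 for the 24 mitosis genes, and 14 of the 16 had changes below 0. Of the 9 licensing genes, 1 fell, and 8 had changes below 0. Cdt1 stood at 12.34 and 12.52 in shControl, 12.20 to 12.32 with the hairpins and 11.99 and 11.88 on day 4, again without overlap (-0.49 ± 0.13, 1.41-fold, adjusted p = 0.0357). Its partner Cdc6 had -0.50 ± 0.24 (adjusted p = 0.209), with 9.87 and 9.75 in shControl against 8.87 and 9.74 on day 4, so that 1 day 4 array carried the difference. Its inhibitor Gmnn had -0.54 ± 0.17 (adjusted p = 0.0610). The 6 helicase genes ran from 0.09 ± 0.20 for Mcm2 to -0.63 ± 0.21 for Mcm6 (adjusted p = 0.825 and 0.0830). Mcm2 was also the one whose shControl arrays lay furthest apart, at 10.62 and 10.06, and its other probe set gave -0.30 ± 0.14.

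Of the 7 fork and nucleotide genes 0 passed, and 6 had changes below 0. Rrm2, the regulated subunit of ribonucleotide reductase, had -0.66 ± 0.21 (adjusted p = 0.0639) and its partner Rrm1 -0.33 ± 0.19. Lig1, which seals Okazaki fragments, had -0.48 ± 0.18, the sliding clamp Pcna -0.35 ± 0.15, the primase subunit Prim1 -0.30 ± 0.15 and the flap nuclease Fen1 -0.22 ± 0.22. Tyms, the thymidylate synthase gene, could not be judged: its 3 probe sets had means of 3.99, 2.91 and 2.67, close to or below the lower quartile of every array.

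**Figure D3:**
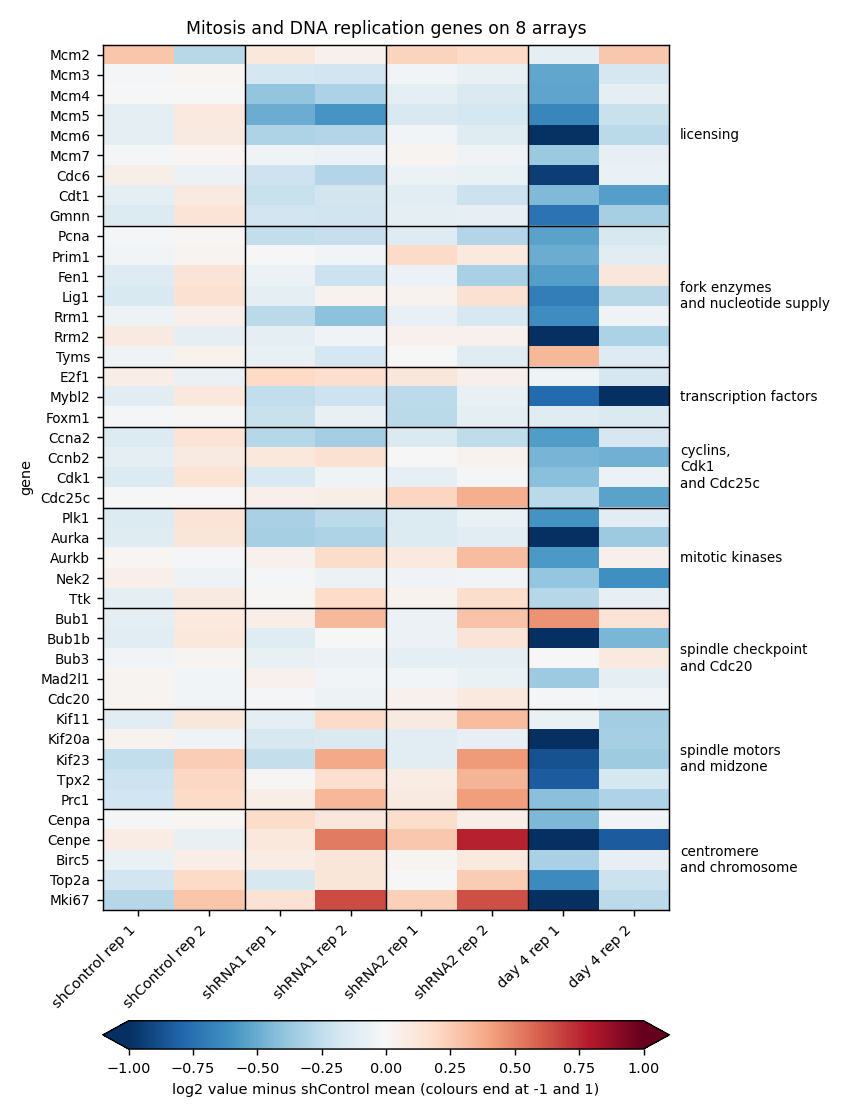
Log2 value minus the shControl mean (colour, from blue for lower to red for higher) of the 43 measured genes (rows, by role) on the 8 arrays (columns). Day 4 replicate 1 is the darkest blue column, with 41 of the 43 genes below the shControl mean, and day 4 replicate 2 is paler with 38 below.

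The 2 day 4 arrays gave different sizes. The median over the 43 genes, relative to the shControl mean, was -0.53 on day 4 replicate 1 and -0.17 on day 4 replicate 2, against -0.01 and 0.01 over all genes. Replicate 1 lay below all 6 undifferentiated arrays for 35 of the 43 genes (29.3% of all genes) and replicate 2 for 22 (25.4% of all genes). Replicate 1 was the lower of the pair for 32 genes and replicate 2 for 11, against 6627 and 5757 of all 12393 genes. Between the shControl arrays, replicate 1 was the lower for 33 of the 43 genes and for 7496 of all genes. The median gap over the 43 genes was 0.13 in shControl and 0.38 on day 4. The 11 on day 4 included Mybl2, Cdt1, Ccnb2 and Nek2, which are 4 of the 6 called genes. Cdc25c, Kif11, Bub1, E2f1 and Foxm1 were also among the 11. The mean of the stem cell markers had the other order, with replicate 2 the lower. Among them, Klf4, a naive pluripotency factor, stood at 7.13 and 5.75, and Esrrb at 7.35 and 4.76 on replicates 1 and 2. Not all markers had this order. Replicate 1 was the lower for Tdgf1, at 10.85 and 11.40, and by less for Pou5f1, Nanog and Utf1.

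**Figure D4:**
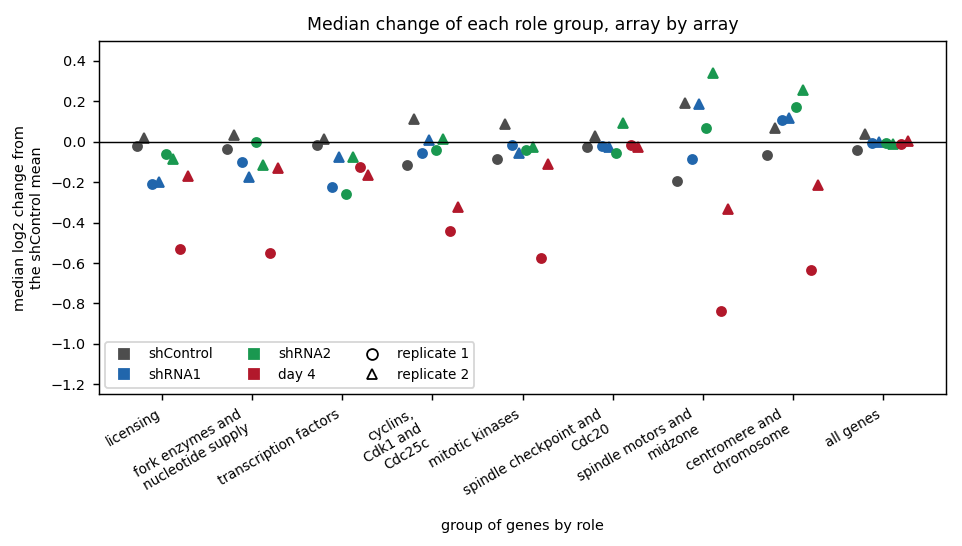
Median log2 change from the shControl mean (y axis) of each role group and of all genes (x axis), 1 point per array (circles replicate 1, triangles replicate 2). The red day 4 points lie lowest in spindle motors, at -0.84 and -0.33, and near 0 in the checkpoint group, at -0.02 and -0.03. The blue shRNA1 points lie at -0.21 and -0.20 in licensing.

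Calls on day 4 depended on single arrays, since groups held 2 each. The count of 6 was 2 and 0 without shControl replicate 1 and replicate 2, 5 and 21 without day 4 replicate 1 and replicate 2, and 2 without any one of the 4 knockdown arrays. Mybl2 and Cenpe were each called in 14 of 18 alternative settings, Bub1b in 8, Cdt1 and Ccnb2 in 7 and Nek2 in 6. The number of genes with changes below 0 stayed between 38 and 41 without any 1 array. Centring each array on its median moved the median of all genes to 0.06 and left 3 of the 43 called, all of them lower.

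Knockdown of Fbxl19 gave no called change in these genes. With both hairpins averaged, with shRNA1, with shRNA2, and between the hairpins, limma called 0 of the 43 genes, where 0.0726%, 0.242%, 0% and 0.105% of all genes were called. At an unadjusted p under 0.05, 1 of the 43 was lower with both hairpins averaged and 1 with shRNA1, the same gene Mcm5, against 4.09% and 5.16% of all genes, and 0 were lower with shRNA2 (2.28%). Between the hairpins 1 was higher at that level, Mcm5 again (2.7%). For the average of both hairpins, the 95% interval lay within 2-fold for 42 of the 43 genes, the exception being Mki67 (-0.60 to 1.44), and within 1.5-fold for 30. The comparisons with shControl share its 2 arrays, so their values are given side by side and not as independent results.

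Among the role groups, the licensing genes were those in which the shRNA1 arrays most often lay below both controls. This held for 8 of 9 with shRNA1 and 4 of 9 with shRNA2, against 23% and 17.8% of all genes, and their median change was -0.20 with shRNA1 and -0.08 with shRNA2. Mcm5 stood at 10.30 and 10.49 in shControl, 9.90 and 9.81 with shRNA1, 10.25 and 10.22 with shRNA2, and 9.75 and 10.18 on day 4. The shRNA1 values were thus in the range of day 4. The change with shRNA1 was -0.54 ± 0.17 (adjusted p = 0.347), and shRNA2 minus shRNA1 was 0.38 ± 0.17 (adjusted p = 0.957). Mcm4 stood at 11.80 and 11.81 in shControl, 11.41 and 11.49 with shRNA1 and 11.72 and 11.66 with shRNA2 (-0.35 ± 0.16 and -0.12 ± 0.16). Mcm6 had -0.30 ± 0.21 and -0.08 ± 0.21, and Mcm7 -0.05 ± 0.14 and 0.00 ± 0.14. Mcm2 was the member of the group on the other side of 0, with 0.08 ± 0.20 and 0.21 ± 0.20. Of the 16 replication genes together, 15 had changes below 0 with shRNA1 and 12 with shRNA2, against 50.1% and 51.6% of all genes. Both counts include Tyms, which could not be judged, and some changes were near 0, such as -0.01 ± 0.15 for Prim1 with shRNA1. The lean was not limited to the set. Of 34 other replication genes, the arrays lay below both controls for 23 with shRNA1 and 8 with shRNA2. Their median changes were -0.19 and -0.08, with 29 and 27 below 0.

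The mitosis genes did not show that lean. Of 24 measured, 10 had changes below 0 with shRNA1 and 8 with shRNA2. All 5 centromere and chromosome genes had averages above 0 over both hairpins, the largest being Cenpe and Mki67, with 0.42 ± 0.20 and 0.42 ± 0.45 (adjusted p = 0.624 and 0.820). For Cenpe, all 4 knockdown arrays lay above the shControl pair, shRNA1 replicate 1 by the smallest margin. Aurka, Plk1 and Ccna2 leaned the other way with shRNA1, at -0.32 ± 0.21, -0.29 ± 0.18 and -0.31 ± 0.17. With shRNA2 they had -0.12 ± 0.21, -0.10 ± 0.18 and -0.20 ± 0.17. Cdc25c had 0.05 ± 0.14 with shRNA1 and 0.29 ± 0.14 with shRNA2. Ccnb2, Nek2 and Bub1b, which fell on day 4, had averages of 0.08 ± 0.11, -0.03 ± 0.12 and -0.01 ± 0.16 over both hairpins.

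Array number also moved with some of these genes. Kif23, a midzone motor gene, was higher on the array numbered 2 in every group, by 0.50 in shControl, 0.61 with shRNA1, 0.53 with shRNA2 and 0.51 on day 4. Mki67 differed likewise, by 0.56, 0.51, 0.41 and 1.94. Between hairpin and control groups, the change was 0.07 and 0.16 for Kif23 and 0.40 and 0.44 for Mki67 with shRNA1 and shRNA2, which is no larger than most of these differences within a group. Lig1, Cdk1, Plk1, Aurka, Ttk, Bub1b, Bub3, Tpx2, Prc1, Birc5 and Top2a were also higher on the array numbered 2 in every group. Of the 43 genes, that array was the higher for 33 in shControl, 27 with shRNA1, 25 with shRNA2 and 32 on day 4. Over all 12393 genes it was the higher for 7496, 6081, 5909 and 6627. The source of these differences was not tested.

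**Figure D5:**
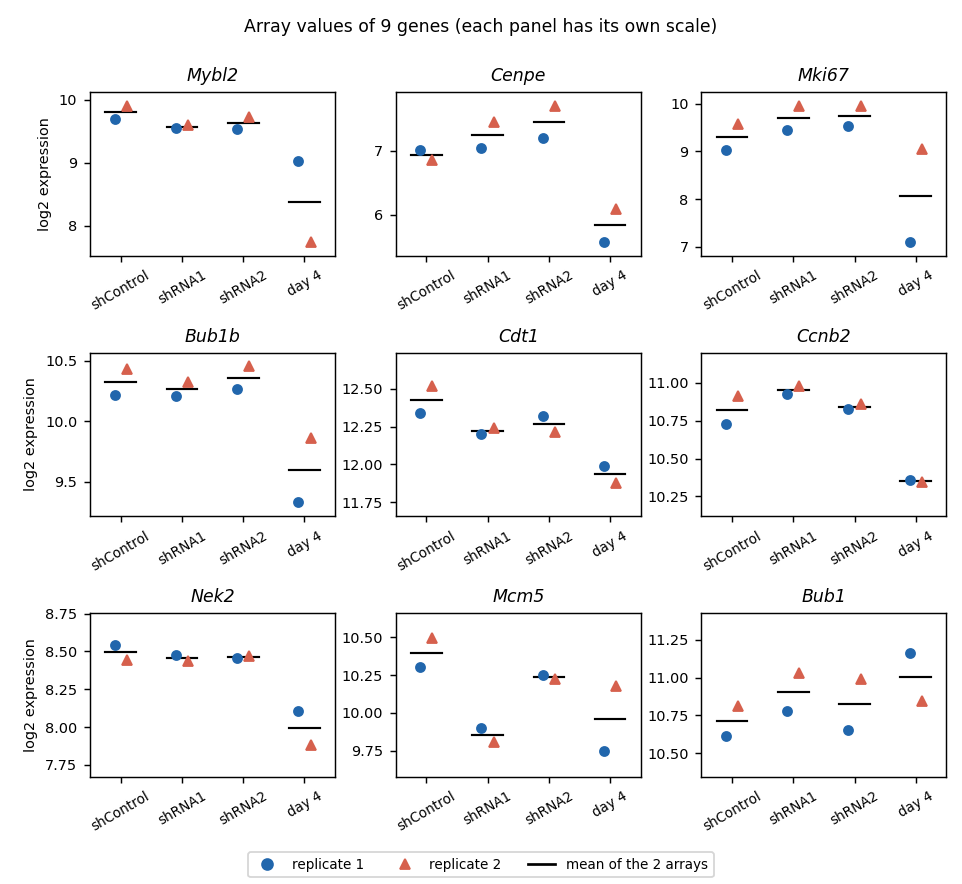
Log2 expression (y axis, own scale in each panel) of 9 genes in the 4 groups (x axis), with circles for replicate 1, triangles for replicate 2 and a bar for the mean of the 2 arrays. Mybl2, Cenpe, Bub1b, Cdt1, Ccnb2 and Nek2 have both day 4 arrays below all others, Mki67 has 1, and Bub1 has no low day 4 array. Mcm5 has the arrays of both hairpins below both controls, those of shRNA1 the lower.

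Other genes of the same pathways, taken from lists of related genes, were read for comparison, beside the 8.73% of all genes that fell on day 4 and the 7.67% that rose. Of 34 measured replication genes outside the set, 7 fell on day 4 and 0 rose, with a median of -0.38. They included Tk1, thymidine kinase, with -1.36 ± 0.37, the replication initiation factor Mcm10 with -0.95 ± 0.22, the helicase partner Cdc45 with -0.65 ± 0.18 and the maintenance methylation factor Uhrf1 with -0.64 ± 0.15. Tk1 stood at 9.51 and 9.65 in shControl and 7.49 and 8.95 on day 4, again with replicate 1 the lower. Of 35 other mitosis genes, 3 fell, which is 8.57% and close to the share of all genes, and 0 rose (median -0.28). The 3 were Fzr1, which encodes the APC activator Cdh1 (-0.89 ± 0.18), the spindle gene Dlgap5 (-0.84 ± 0.18) and the kinetochore gene Ndc80 (-0.60 ± 0.17). Of 11 anaphase promoting complex subunits 0 were called, and of 8 cohesin genes 1 was, Stag2, which rose by 1.59 ± 0.16 (adjusted p = 0.000211). Against all undifferentiated arrays, 12 of the 34 replication genes and 11 of the 35 mitosis genes fell, where 12.1% of all genes did. With that reference 1 of the 34 and 0 of the 35 rose. The counts of 7 and 3 became 0 and 0 without shControl replicate 2 and 17 and 7 without day 4 replicate 2, and the 7 was 3 without shControl replicate 1 and 2 without any other array.

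Of 16 inhibitors of the cycle, 4 rose from shControl to day 4 and 3 fell, against 7.67% and 8.73% of all genes. The 7 calls became 1 with only the compared groups fitted, with array weights, or at a minimum change of 1.5-fold. They became 1 without shControl replicate 2 and 3 without shControl replicate 1 or any 1 knockdown array. Against all undifferentiated arrays, 2 of the 16 rose and 5 fell, as did 1326 and 1499 of all 12393 genes. From shControl, Ccng1, a p53 target, rose by 1.59 ± 0.14 and the retinoblastoma gene Rb1 by 0.99 ± 0.23. Rb1 stood at 5.83 and 5.77 in shControl, 6.66 to 7.11 with the hairpins, and 7.15 and 6.43 on day 4. Cdkn2a changed by -0.77 ± 0.22 and Lin37, a MuvB subunit gene, by -0.61 ± 0.18. Of 6 other E2F family genes, the repressor E2f8 fell by 1.36 on the log2 scale (SE 0.20, adjusted p = 0.00167) and E2f6 rose by 0.81 ± 0.13 (adjusted p = 0.00309). E2f8 stood at 9.35 and 9.27 in shControl, 8.87 to 9.02 with the hairpins, then 7.64 and 8.25 on day 4.

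With the hairpins, 2 of these 16 inhibitor genes rose in the average of both and 0 of the remaining listed cell cycle genes were called, where 0.0726% of all genes were. The cell cycle inhibitor gene Cdkn1a, which encodes p21, had 0.68 ± 0.11 (adjusted p = 0.0917), its knockdown arrays standing at 8.97 to 9.19 and its control arrays at 8.36 and 8.42. The 2 that rose were the p53-induced genes Ccng1 (1.18 ± 0.12, adjusted p = 0.0122) and Btg2 (0.95 ± 0.12, adjusted p = 0.0460). Neither passed without any one of the shControl, shRNA1 or shRNA2 arrays, with adjusted p from 0.0620 to 0.269 for Ccng1 and 0.156 to 0.289 for Btg2. With shRNA2 alone neither passed either (adjusted p = 0.0878 for both), and with shRNA1 alone Ccng1 did (adjusted p = 0.0131) and Btg2 did not (0.150). Tacc3, a spindle gene, had -0.91 ± 0.20 with shRNA1 (adjusted p = 0.138), where its arrays stood at 8.05 and 8.24 against 8.87 and 9.24 in shControl and 9.08 and 9.25 with shRNA2. The difference between the hairpins, 1.02 ± 0.20, also missed the threshold (adjusted p = 0.194). Cdkn2b, which encodes p15, had 0.84 ± 0.14 with shRNA2 (adjusted p = 0.179).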

How the data were processed

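The values the authors deposited are on a log2 scale, with 1 for each probe set, and the submitters' processing notes name RMA. The sources used here give neither its version nor whether it ran on all 8 arrays at once. Of 22690 probe sets, 20393 had 1 gene symbol, 691 several and 1606 none, and 64 array controls were left out. Symbols and gene IDs came from the platform annotation, and 20364 probe sets matched a RefSeq gene table by ID. Groups and replicate numbers came from sample titles. A free-text label of 3 knockdown samples names other Fbxl genes, whereas titles name Fbxl19 throughout and were followed. The labels name Cy3 and the design text an Affymetrix array.

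The brightest probe set per gene was kept (12393 genes). A mean per group was fitted with limma 3.58.1 in R 4.3.3 (lmFit, eBayes) on all 8 arrays, leaving 4 residual degrees of freedom, with Benjamini-Hochberg adjustment over all genes and a call at an adjusted p under 0.05. Errors are moderated standard errors (SE). The script was tested on simulated data. The genes, role groups, other lists and alternatives were chosen with earlier results of these data known, so no list was tested as a whole. All measured genes of the set were accounted for. From the other lists, up to 4 called genes with the largest change on day 4 and, per knockdown comparison, the 3 with the smallest p over the cell cycle lists were named. Some of these came from several comparisons and are given once. Alternatives were separate tests of all probe sets, probe set means per gene, the dimmest 30% of genes left out, trend and robust eBayes, only the compared groups fitted, array weights, repeated quantile normalization, centred arrays, a minimum 1.5-fold change, the replicate number as a block, each array left out, and all undifferentiated groups as the reference. Precision is limited by the number of arrays.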

Additional observations from a re-analysis of the deposited data

How the results depend on the processing

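In the knockdown comparisons, 0 of the 43 genes were called under each of the 18 alternatives run. Without any 1 array their median change lay between -0.0969 and -0.0099 for both hairpins averaged, -0.12 and -0.03 for shRNA1, -0.06 and 0.02 for shRNA2, and 0.0358 and 0.1121 for shRNA2 against shRNA1, where probe set means gave 0.0625 in place of 0.0932. Of these, the median of both hairpins without shControl replicate 1 (-0.0969), and between the hairpins those with probe set means, without shRNA1 replicate 1 and without shRNA2 replicate 2 (0.0472), moved by more than the spread between replicate arrays of the groups compared. On day 4 the median of -0.36 became -0.53 and -0.17 without day 4 replicate 2 and replicate 1, the lowest and highest values.

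The 6 genes called on day 4 became 11 with trend and robust eBayes, 1 with only the compared groups fitted, 1 with array weights, 3 with centred arrays, 0 at a minimum change of 1.5-fold, and 15 against all undifferentiated groups, and lay between 0 and 21 without any 1 array. The replicate number was shared by the groups, but the labels do not say that it marks a batch. Deviations of same-numbered arrays correlated across genes at 0.50 between the hairpins, 0.26 and 0.23 between shControl and the hairpins, and 0.07, -0.02 and -0.08 with day 4. With the replicate block, 12 of the 43 genes were called on day 4 and 0 in the knockdown comparisons. Over all genes the replicate block gave 22 calls for both hairpins averaged (9 without it), 49 for shRNA1 (30) and 8 between the hairpins (13). Of the other lists, 6 mitosis genes were called with it (3 without).

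Calls among all genes moved further. For both hairpins averaged they were 54 with only the compared groups, 5 with array weights and 1 at a minimum change, and 0 to 54 without any 1 array. For shRNA1 they were 48 with trend and robust eBayes, 113 with the compared groups, 50 with repeated quantile normalization and 3 at a minimum change, and 2 to 113 without any 1 array. For shRNA2 they were 2 with trend and robust eBayes, 40 with the compared groups and 2 with repeated quantile normalization (limma without these settings called 0, with 350 genes higher and 282 lower at an unadjusted p under 0.05), and 0 to 12 without any 1 array. Between the hairpins they were 176 with array weights and 2 at a minimum change, and 2 to 37 without any 1 array. On day 4 the 2033 calls became 1145 with the compared groups, 1191 with array weights and 519 at a minimum change, and lay between 1102 and 2628 without any 1 array.

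Of the other lists on day 4, replication genes had 11 calls with probe set means, 11 with trend and robust eBayes, 0 with the compared groups, 1 with array weights and 0 at a minimum change (0 to 17 without any 1 array). Mitosis genes had 6, with probe set means, then 1, 1 and 0 under those last 3 settings (0 to 7 without any 1 array). Inhibitors had 1 under each of the same 3 (1 to 6), cohesin genes 2 with probe set means (1 to 2), E2F genes 1 at a minimum change (2 without any 1 array), and anaphase promoting complex genes 0 to 1 without any 1 array. Why the counts move was not tested, beyond the fewer arrays or stricter threshold that some settings bring.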

Other observations

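Several genes of the set had probe sets that differed in size on day 4. With every probe set tested, Kif11 had -0.21 ± 0.17 by its brightest probe set and -1.10 ± 0.26 by its dimmest (adjusted p = 0.0224). Mcm3 had -0.34 ± 0.15 by the brightest of its 5 probe sets and -0.95 ± 0.21 by another (adjusted p = 0.0182). Prc1 had -0.36 ± 0.18 and -0.82 ± 0.18, the latter with an adjusted p of 0.0164. In other genes the brightest probe set had the larger fall. Mcm6 had -0.63 ± 0.21 by its brightest probe set and -0.22 ± 0.29 by its other. Mcm4 had -0.31 ± 0.16 and -0.09 ± 0.28, and Ccna2 -0.36 ± 0.17 and -0.10 ± 0.12. Of the 24 genes with several probe sets, 17 had day 4 changes of 1 sign by all of them.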
